A study of Mus musculus with 4 samples.

Results

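Receptor tyrosine kinases and the growth factors that bind them were compared between NSCL61-sox11 and NSCL61, 2 mouse cell lines measured on Affymetrix arrays. The set holds 58 genes, 30 of receptors and co-receptors and 28 of ligands, chosen by name, with each receptor set beside its ligands. Genes of the PDGF, IGF and Eph families were left out. Of the 58 genes, 56 had a probe set annotated to that gene alone, out of 18193 such genes on the array; Areg and Ntf3 were not analysed here. Each gene was read from its probe set with the highest mean over the 4 arrays.

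Both lines derive from neuroepithelial cells of C57BL/6 mouse telencephalon at embryonic day 14.5, carry the p53-/- genotype and are labelled as neural stem cells that resemble glioma-initiating cells. NSCL61-sox11 (2 arrays) expresses sox11, and NSCL61 (2 arrays) is the line it was made from. The protocol describes floating spheres in serum-free medium with insulin (10 μg/ml), PDGF (10 ng/ml), bFGF and forskolin (5 μM), so ligands of 3 receptor families were supplied to both lines. The submitters report that NSCL61-sox11 had lost the ability to form tumours in vivo, and they set out to find genes whose expression changed with sox11. NSCL61-sox11 is a single line, and the route by which sox11 was introduced is not given here. No label ties the arrays to separate cultures, so a p-value here reflects only how far the arrays of a line lie apart, and that spread may be technical.

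A typical receptor tyrosine kinase, though not every member of this set, spans the cell membrane and pairs with a second receptor when its ligand binds. It then phosphorylates itself and adaptor proteins that start the Ras and PI3K pathways. Some of these genes are amplified or overexpressed in glioma, and in neural stem cells EGF and FGF signalling is known to sustain division. The ligands are mostly secreted or shed from the membrane, so a cell can supply its own receptors or those of its neighbours.

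All values are the deposited values, read as log2, and a level is a value on that scale. A gene was called changed at a limma adjusted p under 0.05 (Benjamini-Hochberg over the 27022 brightest probe sets, 60% of the array, with means of at least 5.15). The SE of a fold change is limma's moderated one, intervals are 95% intervals of the fold change with no adjustment, and a positive change is higher in NSCL61-sox11. Sox11 itself was at 7.74 and 7.97 in NSCL61-sox11, against 5.09 and 4.82 in NSCL61, where it lay below the level filter, so that it was called higher (limma adjusted p = 0.00013) with a fold that is uncertain. Of 8 tested markers of neural stem and progenitor cells none rose and 3 fell (37.5%, beside 9.19% lower among all tested genes). The log2 of the summed level of all 11 with a probe set was 14.30 to 14.40 in NSCL61-sox11 and 14.57 to 14.63 in NSCL61. Most of this sum was Vim, at 14.14 and 14.21 in NSCL61-sox11 and 14.36 and 14.40 in NSCL61. Sox2, a transcription factor of neural stem cells, was at 8.68 and 8.97 in NSCL61-sox11, against 10.29 and 10.75 in NSCL61 (-1.70, SE 0.17, limma adjusted p = 0.0019). The filament gene Vim fell by 0.21 and the transcription factor gene Pax6 by 0.45 on the log2 scale (limma adjusted p = 0.020 and 0.040). Neither was called when NSCL61 array 1 or 2 was omitted (adjusted p = 0.14 or 0.19 for Vim, and 0.13 or 0.21 for Pax6), nor was Pax6 when NSCL61-sox11 array 1 was (adjusted p = 0.11). The filament gene Nes differed by 0.05, and Fabp7, Prom1 and Olig2 lay below the filter in both lines. Across all 13084 tested genes the median log2 fold change was -0.02. When the arrays were scaled to spiked-in control RNAs instead, all fold changes moved together, by 0.404 downwards with the poly-A controls and by 0.217 downwards with the hybridisation controls. Directions below refer to the deposited scale, and where a named called gene changes sign under either scaling, this is given beside it.

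More members were higher than lower in NSCL61-sox11 on the deposited scale, and 13 of the 22 called ones are listed as ligand genes. Fgf13, which fell, is listed among them by family although its protein is not secreted, so the ligand counts and median here include it. Of the 46 members above the level filter, 16 rose in NSCL61-sox11, 6 fell and 24 did not pass. That is 34.8% higher and 13.0% lower, beside 10.0% higher and 9.19% lower among all tested genes. With poly-A scaling 5 members were called higher and 8 lower (303 and 1051 of all tested genes), and with hybridisation control scaling 12 and 12 (702 and 2336 of all). Each scaling subtracts 1 amount from every change, so the downward move of the changes is fixed by construction. It also shifts each array on its own, which alters the spread between arrays of a line and so the SEs and calls. Omitting NSCL61 array 1 or 2 left 10 or 9 members called higher and 2 or 1 lower, with 908 or 944 of all tested genes called, against 2510 with all arrays. Nrg1 and Gdnf, counted among the 16, lay below the filter level in NSCL61 and passed it through NSCL61-sox11. The members were chosen with results of these data known, so these counts are a description. At 2-fold or more 10 members rose and 2 fell, beside 3.18% and 1.30% of all tested genes. Among 21 tested ligands 10 rose and 3 fell, and among 25 tested receptors and co-receptors 6 rose and 3 fell; the difference between ligands and receptors was not tested. The median log2 fold change was 0.26 for ligands, 0.07 for receptors and 0.10 for all 46. The median of the members became -0.30 with poly-A scaling and -0.11 with hybridisation control scaling. In 33 members, or 71.7%, the arrays of the lines did not overlap, which held for 62.2% of all tested genes.

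The other 10 members lay below the level filter: Erbb3, Erbb4, Egf, Nrg4, Fgf1, Fgf2, Fgf18, Kit, Ror1 and Tek. Their levels ran from 2.59 to 5.34, and their log2 fold changes in a fit of all probe sets from -0.16 to 0.32. None of these 10 was called by limma in that fit (Fgf18 alone had an unadjusted p under 0.05), in which 13.0% of 18193 genes were called, 6.94% higher and 6.01% lower. Over the 56 members that fit called 15 higher and 6 lower. A signal this low gives little information on whether a gene is expressed.

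**Figure D1:**
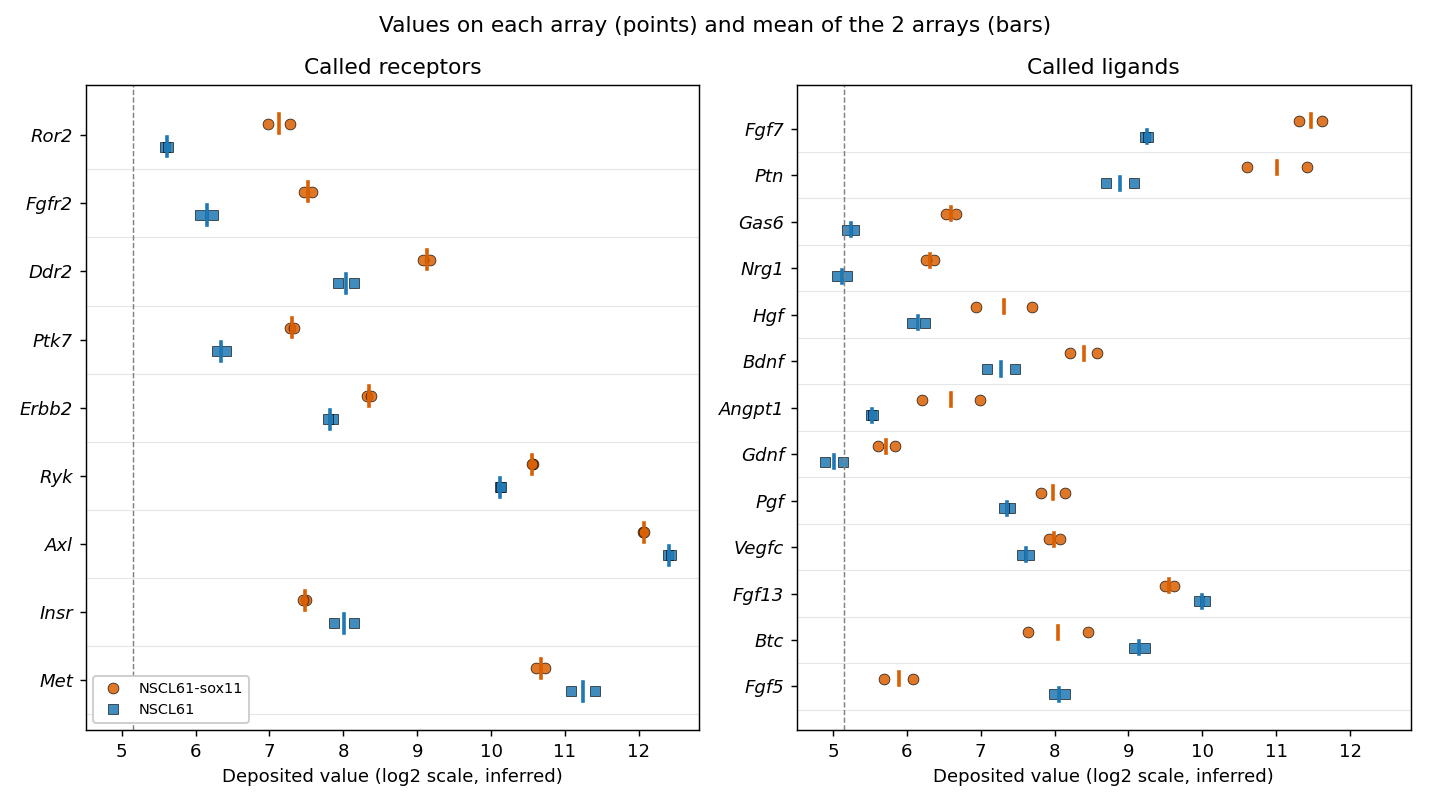
Deposited values (x axis, log2 scale as inferred) of the 22 called members on each array. Orange circles are the 2 NSCL61-sox11 arrays and blue squares below them the 2 NSCL61 arrays; short bars are means, and the dashed line is the level filter at 5.15. The lines do not overlap in any row, and Fgf7, Ptn and Fgf5 are the most widely separated.

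The promoters of 3 changed members are shown first, because the lines differ by a transcription factor whose DNA-binding family, the Sox proteins, is known to bind the core ACAAAG. They are Fgf7 (the largest rise), Fgf5 (the largest fall) and Ror2 (the largest rise of a receptor), each given as the 250 bases before the annotated start of the gene, from RefSeq on build GRCm38.p6 and read along the gene's strand. Capitals mark ACAAAG, or CTTTGT where the match lies on the other strand.
Fgf7, chr2:126034408-126034657, plus strand: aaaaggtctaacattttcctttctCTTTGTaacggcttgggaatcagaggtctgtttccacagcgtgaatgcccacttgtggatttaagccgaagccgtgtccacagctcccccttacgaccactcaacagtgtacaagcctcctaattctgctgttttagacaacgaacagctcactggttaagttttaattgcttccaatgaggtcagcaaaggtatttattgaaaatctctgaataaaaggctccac
Fgf5, chr5:98253934-98254183, plus strand: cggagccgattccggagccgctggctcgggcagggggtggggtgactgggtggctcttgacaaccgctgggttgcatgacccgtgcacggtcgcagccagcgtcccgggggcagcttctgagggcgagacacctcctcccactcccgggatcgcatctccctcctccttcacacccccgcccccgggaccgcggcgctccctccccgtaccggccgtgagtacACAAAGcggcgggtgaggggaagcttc
Ror2, chr13:53286125-53286374, minus strand: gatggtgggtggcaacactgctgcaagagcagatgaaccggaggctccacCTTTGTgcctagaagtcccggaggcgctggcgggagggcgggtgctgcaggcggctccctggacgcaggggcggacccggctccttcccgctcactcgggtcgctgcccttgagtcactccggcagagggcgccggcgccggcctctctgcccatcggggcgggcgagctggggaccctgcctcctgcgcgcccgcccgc
The match begins 226 bases before the start in Fgf7, 27 bases before it in Fgf5 and 200 bases before it in Ror2, so the core is present in genes that moved in opposite directions. The Fgf5 and Ror2 stretches are rich in G and C (70.8% and 73.2%), and the Fgf7 stretch is not (43.6%). Of 31 promoters of 300 bases listed for 19 called members, 5 held ACAAAG on either strand (16.1%), beside 18.7% of all 32851 promoters in the table. The others with a match were single promoters of Bdnf and Fgf13, which have several. A second form, ACAATG, which shares no match with the first, was found in 1 of the 31 (a promoter of Bdnf) and in 12.6% of all. Nrg1, Insr and Angpt1 are named only. A match is a run of letters and does not show that a protein binds there.

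The FGF family showed the largest changes in both directions. FGF receptors bind FGFs together with heparan sulphate, and alternative splicing of Fgfr1 to Fgfr3 decides which FGFs fit. Fgfr2, whose IIIb form is the receptor of Fgf7 and Fgf10, was at 7.47 and 7.58 in NSCL61-sox11, against 6.06 and 6.24 in NSCL61. This is a 2.60-fold rise (log2 fold change 1.38, SE 0.11, limma adjusted p = 0.00078), and its second tested probe set rose 3.18-fold. The probe sets are not assigned to splice forms here. Fgfr1, Fgfr3, Fgfr4 and the decoy-like receptor gene Fgfrl1 did not pass. Their log2 fold changes lay between -0.03 and 0.23, and the widest of their intervals, that of Fgfr3, ran from -0.09 to 0.55.

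Among the FGF ligands, Fgf7, a mesenchymal growth factor for epithelium, was at 11.62 and 11.31 in NSCL61-sox11 and at 9.23 and 9.27 in NSCL61. It rose 4.65-fold (log2 fold change 2.22, SE 0.11, limma adjusted p = 0.00015), and its second probe set gave 4.63-fold. Fgf5, which is known for ending the growth phase of hair and is expressed in early embryonic cells, was at 6.09 and 5.69 in NSCL61-sox11 and at 8.14 and 7.99 in NSCL61. Its log2 fold change was -2.18 (SE 0.15, limma adjusted p = 0.00045), and that of its second probe set -1.50. Fgf7 and Fgf5 thus moved in opposite directions, each on both of its probe sets. The second Fgf5 probe set was at 4.72 and 4.41 in NSCL61-sox11, below the filter level, so the size of its fall is uncertain. Fgf13 encodes an intracellular FGF homologue that is not secreted and binds sodium channels. Its level was 9.49 and 9.61 in NSCL61-sox11, against 9.95 and 10.04 in NSCL61, and it fell by 0.44 on the log2 scale (SE 0.09, limma adjusted p = 0.019). Omitting NSCL61 array 1 or 2 ended the call of Fgf13 (adjusted p = 0.10 or 0.16). Fgf10, the other ligand of the IIIb form, was at 6.09 and 5.62 in NSCL61-sox11 and at 5.55 and 5.64 in NSCL61, with overlapping arrays (0.26, interval -0.14 to 0.66), and Fgf9 differed by -0.03.

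In the ErbB family the members called on their brightest probe set were the receptor that has no ligand of its own and 2 ligands. Erbb2, the preferred partner of the other ErbB receptors, was at 8.32 and 8.37 in NSCL61-sox11 and at 7.86 and 7.79 in NSCL61. Its log2 fold change was 0.52 (SE 0.09, limma adjusted p = 0.013), and it shrank to 0.11 with poly-A scaling (adjusted p = 0.76) and 0.30 with hybridisation control scaling (adjusted p = 0.22). Erbb2 was also not called when NSCL61 array 1 or 2 was omitted (adjusted p = 0.077 or 0.11). Egfr, the receptor of EGF, was at 7.75 and 7.87 in NSCL61-sox11 and at 7.62 and 7.63 in NSCL61 on its brightest probe set, which did not pass (0.19, interval -0.04 to 0.42, limma adjusted p = 0.24). Its 6 tested probe sets disagreed. On another of them Egfr was at 6.76 and 7.53 in NSCL61-sox11, against 5.68 and 5.68 in NSCL61, and differed by 1.46 on the log2 scale (SE 0.24, limma adjusted p = 0.0099). On a further probe set the change was 1.01 (adjusted p = 0.079), and on the remaining 3 it lay between -0.14 and 0.31. Whether Egfr transcripts changed cannot be settled from these probe sets, whose positions along the transcript are not given.

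Neuregulin 1 (Nrg1) is the ligand of ErbB3 and ErbB4, and a known factor for glial and Schwann cell development. It was at 6.37 and 6.26 in NSCL61-sox11, against 5.19 and 5.05 in NSCL61, a 2.30-fold rise (log2 fold change 1.20, SE 0.11, limma adjusted p = 0.0013). The size is uncertain because NSCL61 lay near the level filter, and the call was lost with poly-A scaling (0.80, adjusted p = 0.057). Both of its receptor genes were below the filter in both lines, Erbb3 at 4.88 and 4.89 in NSCL61-sox11 and 4.92 and 4.90 in NSCL61. Betacellulin (Btc), which binds EGFR and ErbB4, was at 7.64 and 8.45 in NSCL61-sox11 and at 9.07 and 9.22 in NSCL61. Its log2 fold change was -1.10 (SE 0.24, limma adjusted p = 0.028), and -1.29 on the second probe set. The NSCL61-sox11 arrays of Btc lay apart: the change was -0.70 without NSCL61-sox11 array 1 and -1.50 without array 2, and omitting NSCL61 array 1 or 2 ended its call (adjusted p = 0.11 or 0.14). Further EGFR ligands, heparin-binding EGF (Hbegf) and epiregulin (Ereg), had the same log2 fold change of -0.29 and did not pass (adjusted p = 0.11 and 0.063), though a second Hbegf probe set fell by 0.52 (adjusted p = 0.011). Without NSCL61-sox11 array 2 Ereg was called (-0.35, adjusted p = 0.037). Tgfa and Nrg2 differed by 0.02 and -0.08.

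**Figure D2:**
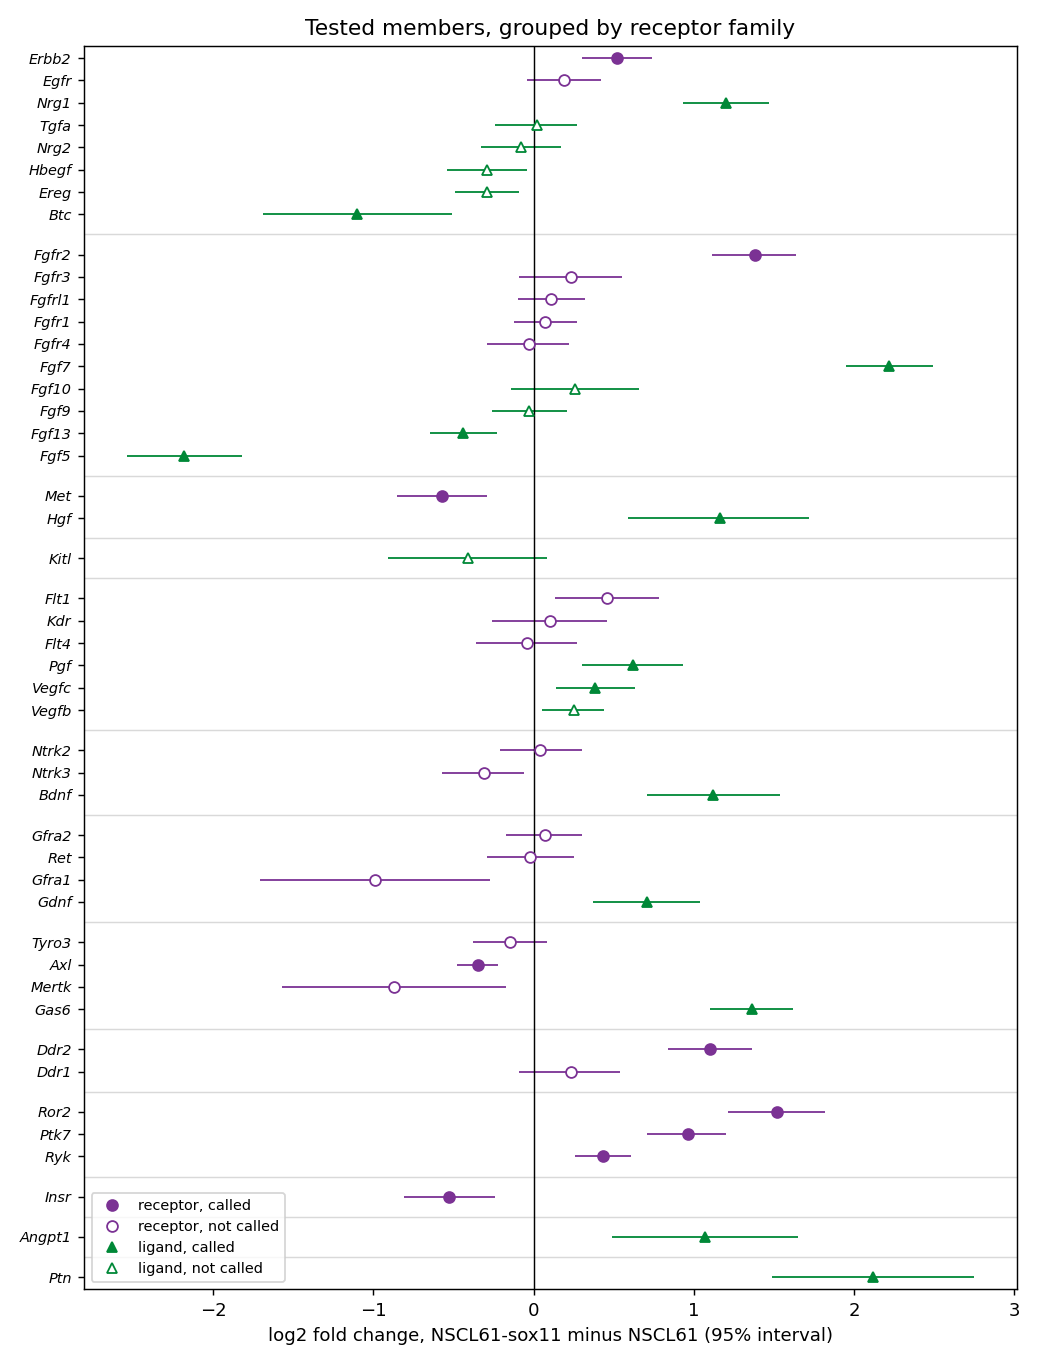
Log2 fold changes, NSCL61-sox11 minus NSCL61 (x axis, with unadjusted 95% intervals), of the 46 tested members, with receptor families separated by lines. Circles are receptors and triangles ligands, filled where called: the extremes are the ligands Fgf7 (2.22) and Fgf5 (-2.18), and all 3 Wnt-binding receptors lie to the right of 0.

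In 2 families the ligand rose and a receptor fell. Met, the receptor of hepatocyte growth factor and a driver of invasion in many tumours, was at 10.61 and 10.73 in NSCL61-sox11, against 11.08 and 11.40 in NSCL61. Its log2 fold change was -0.57 (SE 0.12, limma adjusted p = 0.022) and that of its second probe set -0.79; omitting NSCL61 array 2 ended the call (-0.41, adjusted p = 0.12). Hgf, its only ligand, was at 7.69 and 6.94 in NSCL61-sox11 and at 6.07 and 6.24 in NSCL61, a 2.23-fold rise (log2 fold change 1.16, SE 0.24, limma adjusted p = 0.021), and all 3 of its probe sets rose. Hgf was not called when NSCL61 array 1 or 2 was omitted (adjusted p = 0.11 or 0.082) or with poly-A scaling (adjusted p = 0.10). The change in Hgf was 0.78 without NSCL61-sox11 array 1 and 1.53 without array 2.

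The second such family was TAM, named for Tyro3, Axl and Mertk, receptors that recognise dying cells through the bridging ligand Gas6. Axl was at 12.06 and 12.07 in NSCL61-sox11 and at 12.39 and 12.44 in NSCL61. The difference of -0.35 on the log2 scale (SE 0.05, limma adjusted p = 0.0083) was small but several times the difference between arrays of a line. Axl was not called when NSCL61 array 1 or 2 was omitted (adjusted p = 0.081 or 0.11), nor with poly-A scaling, where the change was -0.76 (adjusted p = 0.056). Mertk was at 6.71 and 7.56 in NSCL61-sox11 and at 7.77 and 8.25 in NSCL61, a difference of -0.87 (SE 0.29) that did not pass (limma adjusted p = 0.091). Without NSCL61-sox11 array 2 Mertk was called (-1.30, adjusted p = 0.0039). Tyro3 differed by -0.15 (interval -0.38 to 0.08). Gas6 itself was at 6.53 and 6.66 in NSCL61-sox11, against 5.29 and 5.19 in NSCL61, a 2.56-fold rise (log2 fold change 1.36, SE 0.11, limma adjusted p = 0.00077). The size of the Gas6 rise is uncertain because NSCL61 lay near the level filter, and its other probe set, below the filter, gave -0.06. Both control scalings lower every change by 1 amount, so the falls of Met and Axl could not change sign. Hgf and Gas6 rose by more than either amount, so their kept signs are no further check.

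The neurotrophic ligand genes Bdnf and Gdnf rose, and their receptor genes did not pass on their brightest probe sets. Bdnf, brain-derived neurotrophic factor, was at 8.58 and 8.21 in NSCL61-sox11 and at 7.46 and 7.09 in NSCL61, a 2.17-fold rise (log2 fold change 1.12, SE 0.17, limma adjusted p = 0.0083) that its second probe set also gave (2.28-fold); with poly-A scaling the call was lost (0.72, adjusted p = 0.11). Its receptor gene Ntrk2 differed by 0.04 (interval -0.21 to 0.30). Ntrk3, the receptor of neurotrophin 3, was at 5.07 and 5.10 in NSCL61-sox11 and at 5.35 and 5.44 in NSCL61, near the level filter, and did not pass (-0.31, limma adjusted p = 0.091). Gdnf, a glial factor that signals through Ret and a GFRα co-receptor, was at 5.84 and 5.61 in NSCL61-sox11, against 5.14 and 4.89 in NSCL61. This rise of 0.71 (SE 0.14, limma adjusted p = 0.018) lay below the level filter in NSCL61, and the call ended when NSCL61 array 2 was omitted (adjusted p = 0.11) or with poly-A scaling (0.30, adjusted p = 0.38). The co-receptor gene Gfra1 was at 6.86 and 7.62 in NSCL61-sox11 and at 7.89 and 8.57 in NSCL61. Its log2 fold change of -0.99 (SE 0.30) did not pass (limma adjusted p = 0.071), and its other probe sets gave -1.06 and -0.59. Gfra1 was called without NSCL61-sox11 array 2 (-1.37, adjusted p = 0.0086). Ret and Gfra2 differed by -0.02 and 0.07 on their brightest probe sets. A dim probe set of Gfra2 was called higher in the fit of all probe sets (1.76, SE 0.18, limma adjusted p = 0.0011), at 5.50 and 5.26 in NSCL61-sox11 and 3.38 and 3.86 in NSCL61, and another gave 0.83 (adjusted p = 0.065). Both are of the _x_at kind, which may detect other transcripts, and the remaining Gfra2 probe sets gave 0.24 and 0.13.

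Receptors that bind Wnt proteins or take part in planar cell polarity rose together, as far as they could be tested. Ror2, a receptor of Wnt5a whose promoter is shown above, was at 7.28 and 6.98 in NSCL61-sox11, against 5.59 and 5.63 in NSCL61, a 2.86-fold rise (log2 fold change 1.52, SE 0.13, limma adjusted p = 0.00096). Ptk7, a kinase-inactive receptor of planar cell polarity, was at 7.28 and 7.33 in NSCL61-sox11 and at 6.29 and 6.41 in NSCL61. It rose 1.94-fold (log2 fold change 0.96, SE 0.10, limma adjusted p = 0.0022), with its call lost under poly-A scaling (0.55, adjusted p = 0.21). Ryk, another kinase-inactive Wnt receptor, was at 10.57 and 10.55 in NSCL61-sox11 and at 10.12 and 10.13 in NSCL61. The rise of Ryk was 1.35-fold (log2 fold change 0.43, SE 0.07, limma adjusted p = 0.010), and 2 of its 3 probe sets were called. It was 0.03 with poly-A scaling (adjusted p = 0.93) and 0.22 with hybridisation control scaling (adjusted p = 0.35), and it was not called when NSCL61 array 1 or 2 was omitted (adjusted p = 0.10 or 0.097). The fourth of these genes, Ror1, lay below the level filter at 5.03 and 4.89 in NSCL61-sox11 and 4.67 and 4.81 in NSCL61.

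Of the discoidin domain receptors, which are activated by collagen, Ddr2 rose and Ddr1 did not pass. Ddr2 was at 9.18 and 9.08 in NSCL61-sox11 and at 7.93 and 8.14 in NSCL61, a 2.14-fold rise (log2 fold change 1.10, SE 0.11, limma adjusted p = 0.0017); its call was lost with poly-A scaling (0.69, adjusted p = 0.11). The other Ddr2 probe set gave a larger rise, 4.12-fold. Ddr1, an epithelial and oligodendrocyte receptor, was at 10.67 and 11.02 in NSCL61-sox11, against 10.52 and 10.72 in NSCL61, and none of its 8 probe sets was called (0.23, interval -0.09 to 0.54). Without NSCL61-sox11 array 1 Ddr1 was called (0.40, adjusted p = 0.032). Pleiotrophin (Ptn), a heparin-binding growth factor that acts through the phosphatase receptor Ptprz1 and the kinase Alk, was at 10.60 and 11.42 in NSCL61-sox11 and at 8.70 and 9.08 in NSCL61. It rose 4.35-fold (log2 fold change 2.12, SE 0.26, limma adjusted p = 0.0039). A second probe set of Ptn gave 3.74-fold and the third a log2 fold change of 0.05 (adjusted p = 0.78). The genes of both named receptors, Ptprz1 and Alk, were below the level filter, with Ptprz1 at 4.01 and 4.15 in NSCL61-sox11 and 4.22 and 4.19 in NSCL61.

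Fgf7, Hgf, Ddr2, Angpt1 and Ptn are known from fibroblasts and other mesenchymal cells too. They were picked from the members that rose, so they do not describe the whole set. Markers of such cells were read from the same fit. Of 9 tested markers of fibroblasts and meninges 7 rose and none fell (77.8% higher, beside 10.0% higher and 9.19% lower among all tested genes). The arrays of Postn, which rose, lay far apart, at 8.27 and 10.59 in NSCL61-sox11 and 5.69 and 6.50 in NSCL61. Postn and Foxc1, both counted as risen, were not called when NSCL61 array 1 or 2 was omitted. The log2 of the summed level of all 12 with a probe set was 12.96 to 13.53 in NSCL61-sox11, against 11.39 to 11.90 in NSCL61. Among 7 tested mural cell markers 2 rose and 1 fell (28.6% and 14.3%). The one that fell, Anpep, was not called when NSCL61 array 1, NSCL61 array 2 or NSCL61-sox11 array 1 was omitted. The summed level of all 9 was 9.81 to 10.03 in NSCL61-sox11 and 9.06 to 9.14 in NSCL61. Lum, Thy1 and Lama1 of the first list, and Kcnj8 and Myh11 of the second, lay below the level filter in both lines. Of 6 tested neuron markers 2, Tubb3 and Syt1, rose and 1, the neurofilament gene Nefl, fell (Map2, Dcx and Snap25 lay below the filter). The median of those tested was 0.16, and Syt1 was not called when NSCL61 array 1 or 2 was omitted. The summed level was 9.25 to 9.30 in NSCL61-sox11 and 11.30 to 11.95 in NSCL61. Most of the NSCL61 sum was Nefl, at 11.01 and 11.79 in NSCL61 and at 4.32 and 4.91 in NSCL61-sox11. The sum therefore does not describe the neuron markers as a group. No marker of microglia and blood (3 tested) or of oligodendrocytes and astrocytes (6 tested) was called by limma, with Gfap alone at an unadjusted p under 0.05. The markers of neural stem and progenitor cells, given above, had 3 called falls and a median of -0.21. The part of other cells in the results was not tested, and in cultures measured as a whole, fewer cells of a type and less RNA per cell cannot be told apart.

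No VEGF receptor gene passed, and 3 ligands of vascular receptors, Pgf, Vegfc and Angpt1, rose (Vegfc turned to -0.02 with poly-A scaling). VEGF receptors and the angiopoietin receptor Tek are best known from endothelium. Of 7 tested markers of endothelial cells none was called by limma, though Cdh5, Erg and Egfl7 were lower at an unadjusted p under 0.05. The summed level of all 11 with a probe set was 9.40 to 9.47 in NSCL61-sox11 and 9.64 to 9.71 in NSCL61. Pecam1, Emcn, Tie1 and Vwf lay below the level filter in both lines. Eng and Egfl7 were well above it, at 7.26 to 7.39 and 7.70 to 7.86 in NSCL61-sox11 and 7.45 to 7.48 and 8.07 to 8.32 in NSCL61. Flt1, a receptor of VEGF-A, VEGF-B and PlGF, was at 7.97 and 8.33 in NSCL61-sox11 and at 7.68 and 7.69 in NSCL61 and did not pass (0.46, limma adjusted p = 0.065); it was called without NSCL61-sox11 array 1 (0.64, adjusted p = 0.011). Kdr and Flt4 differed by 0.10 and -0.04. Among the ligands, placental growth factor (Pgf) was at 7.81 and 8.14 in NSCL61-sox11, against 7.40 and 7.32 in NSCL61, a rise of 0.62 (SE 0.13, limma adjusted p = 0.025). Pgf was not called when NSCL61 array 1 or 2 was omitted (adjusted p = 0.10 or 0.14), nor with poly-A (0.21, adjusted p = 0.57) or hybridisation control scaling (0.40, adjusted p = 0.098). Vegfc, a ligand for lymphatic vessels, was at 7.92 and 8.07 in NSCL61-sox11 and at 7.56 and 7.66 in NSCL61 (0.38, SE 0.10, limma adjusted p = 0.048). This call stood at the threshold: omitting NSCL61 array 1, NSCL61 array 2 or NSCL61-sox11 array 2 ended it (adjusted p = 0.25, 0.15 or 0.14), and with poly-A scaling the sign turned (-0.02). Vegfb differed by 0.25 (interval 0.05 to 0.44, limma adjusted p = 0.090). Angpt1, the activating ligand of Tek, was at 6.21 and 6.99 in NSCL61-sox11 and at 5.51 and 5.54 in NSCL61, a rise of 1.07 on the log2 scale (SE 0.24, limma adjusted p = 0.029), and its second probe set was called too (adjusted p = 0.021), with an uncertain fold because NSCL61 lay at 4.94 and 5.25 there. Angpt1 was not called when NSCL61 array 1 or 2 was omitted (adjusted p = 0.13 or 0.12) or with poly-A scaling (0.67, adjusted p = 0.13), and the change was 0.68 without NSCL61-sox11 array 2 and 1.47 without array 1. Its receptor gene Tek was at 3.82 and 4.04 in NSCL61-sox11 and at 3.77 and 3.90 in NSCL61, below the filter.

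The insulin receptor gene Insr was at 7.50 and 7.46 in NSCL61-sox11, against 7.88 and 8.14 in NSCL61, and fell by 0.53 on the log2 scale (SE 0.12, limma adjusted p = 0.028). Omitting NSCL61 array 1, NSCL61 array 2 or NSCL61-sox11 array 2 ended the call (adjusted p = 0.051, 0.16 or 0.054), and its second tested probe set did not pass (-0.33, adjusted p = 0.13). Stem cell factor (Kitl), the ligand of Kit, was at 9.79 and 10.36 in NSCL61-sox11 and at 10.29 and 10.68 in NSCL61. Its arrays overlapped and it did not pass (-0.41, interval -0.91 to 0.08, limma adjusted p = 0.23), with changes of -0.25 to -0.48 on its other 3 probe sets. Kitl was called without NSCL61-sox11 array 2 (-0.70, adjusted p = 0.018). Kit was below the filter.

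**Figure D3:**
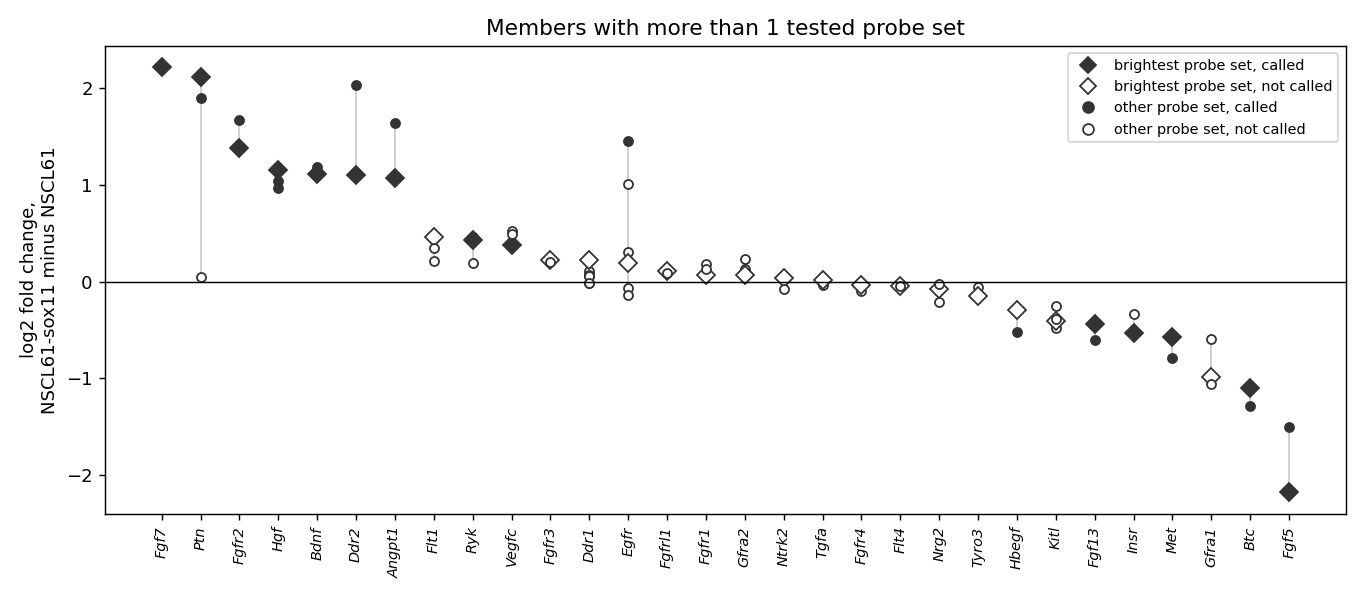
Log2 fold changes, NSCL61-sox11 minus NSCL61 (y axis), of every tested probe set of the members that have more than 1. Diamonds are the brightest probe set of a gene, circles the others, filled where called; Fgf7 and Bdnf lie close together, while Egfr spreads from -0.14 to 1.46 and Ptn has 1 probe set at 0.05.

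Agreement between probe sets is a check that does not use another array. Of 14 called members with more than 1 tested probe set, 10 had every one called in the same direction. The others were Vegfc, Ryk, Insr and Ptn. Among those 10, 1 probe set each of Hgf, Angpt1 and Fgf5 had a mean below the filter level in 1 line and passed through the other. These counts leave out probe sets below the filter. Those of called members gave -0.02 for Fgfr2, -0.06 for Gas6, -0.0 for Ror2, -0.01 for Axl and -0.42 for Insr, none of them called. No member had probe sets called in opposite directions, and 2 members that did not pass, Egfr and Hbegf, had another tested probe set that did (that of Gfra2 lay below the level filter). Of the 22 called members 10 kept their call whichever array was left out: Nrg1, Fgfr2, Fgf5, Fgf7, Bdnf, Gas6, Ddr2, Ror2, Ptk7 and Ptn. The share of all called genes that did so is not given here.

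**Figure D4:**
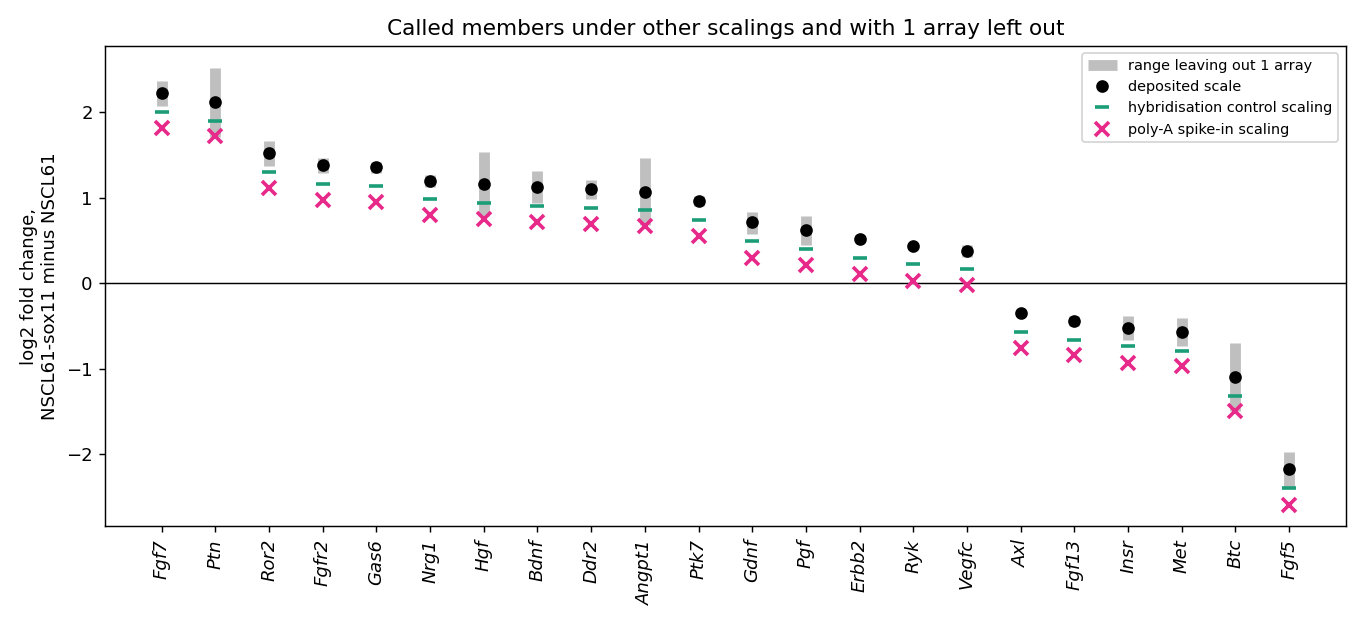
Log2 fold changes, NSCL61-sox11 minus NSCL61 (y axis), of the 22 called members on the deposited scale (black points), with arrays scaled to hybridisation controls (green dashes) or poly-A controls (pink crosses), and over the fits that leave out 1 array (grey bars). Vegfc crosses 0 with poly-A scaling and Ryk comes to 0.03. The falls deepen by construction.

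Beyond the receptors and ligands, 4 lists of genes that assist or carry their signals were read from the same fit. Co-receptors, heparan sulphate genes and further ligands had no called fall: of 21 tested, 7 rose, none fell (Hs6st1 was lower at an unadjusted limma p of 0.040) and 14 did not pass, with a median of 0.09. Gpc4, a glypican that carries heparan sulphate chains and holds FGFs at the surface, was at 9.47 and 10.12 in NSCL61-sox11 and at 6.79 and 6.96 in NSCL61, a 7.57-fold rise (log2 fold change 2.92, SE 0.21, limma adjusted p = 0.00053). A second glypican gene, Gpc6, rose 2.85-fold (adjusted p = 0.0017). The VEGF and semaphorin co-receptor genes Nrp1 and Nrp2 rose by 0.77 and 0.75 on the log2 scale; omitting NSCL61 array 2 ended the call of Nrp1 (adjusted p = 0.052). The rest of those that rose were Sdc4, Hs6st2 and Sulf2, of which Hs6st2 was at -0.01 and Sulf2 at 0.00 with poly-A scaling. Omitting NSCL61 array 2 ended all 3 of these calls (adjusted p = 0.094, 0.18 and 0.11), omitting NSCL61 array 1 those of Hs6st2 and Sulf2 (adjusted p = 0.090 and 0.22), and omitting NSCL61-sox11 array 1 that of Sulf2 (adjusted p = 0.064). Vegfa and Mdk, a ligand related to pleiotrophin, did not pass.

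Of 24 tested adaptors 4 rose, 4 fell and 16 did not pass, with a median of -0.03. The insulin receptor substrate genes Irs1 and Irs2 rose, with Irs1 at 11.19 and 11.30 in NSCL61-sox11 against 9.99 and 10.00 in NSCL61 (2.38-fold, log2 fold change 1.25, SE 0.07, limma adjusted p = 0.00026). Irs2 rose 2.12-fold. Grb10, an adaptor that restrains insulin receptor signalling, was at 8.51 and 8.99 in NSCL61-sox11 and at 6.77 and 6.72 in NSCL61, a 4.02-fold rise (log2 fold change 2.01, SE 0.16, limma adjusted p = 0.00079). These 3 genes act next to Insr, whose call as lower did not hold in every fit with an array omitted. Gab2, a docking protein used by many receptors, fell by 0.85 (adjusted p = 0.0065). The common adaptor genes Grb2 and Shc1 did not pass.

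Of 20 genes of PI3K, Akt and phospholipase C, 3 rose, 2 fell and 15 did not pass, with a median of 0.09. Plcg2, a phospholipase best known from blood cells, rose 2.45-fold (log2 fold change 1.29, SE 0.17, limma adjusted p = 0.0051), and the PI3K regulatory subunit gene Pik3r1 1.59-fold, which omitting NSCL61 array 1 left uncalled (adjusted p = 0.080). Plcg1 rose by 0.41, and by 0.01 with poly-A scaling, and Mtor fell by 0.41. Neither was called when NSCL61 array 1, NSCL61 array 2 or NSCL61-sox11 array 1 was omitted (adjusted p = 0.26, 0.098 or 0.091 for Plcg1, and 0.19, 0.19 or 0.099 for Mtor). Among 22 endocytic and inhibitory regulators 3 rose, 5 fell and 14 did not pass, with a median of -0.07. The receptor phosphatase genes Ptprf and Ptprg fell by 0.99 and 0.80 (adjusted p = 0.0017 and 0.0032). Errfi1, a feedback inhibitor of EGFR, was at 11.34 and 11.62 in NSCL61-sox11, against 12.33 and 12.13 in NSCL61, and fell by 0.75 on the log2 scale (SE 0.11, limma adjusted p = 0.0076), a call that ended when NSCL61 array 1 was omitted (adjusted p = 0.062). Socs2, an inhibitor of growth hormone signalling, rose 2.42-fold (adjusted p = 0.0025). The shares called, 33.3% of co-receptors, 33.3% of adaptors, 25.0% of PI3K genes and 36.4% of regulators, stand beside 19.2% of all tested genes, and these lists too were chosen with earlier results known.

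**Figure D5:**
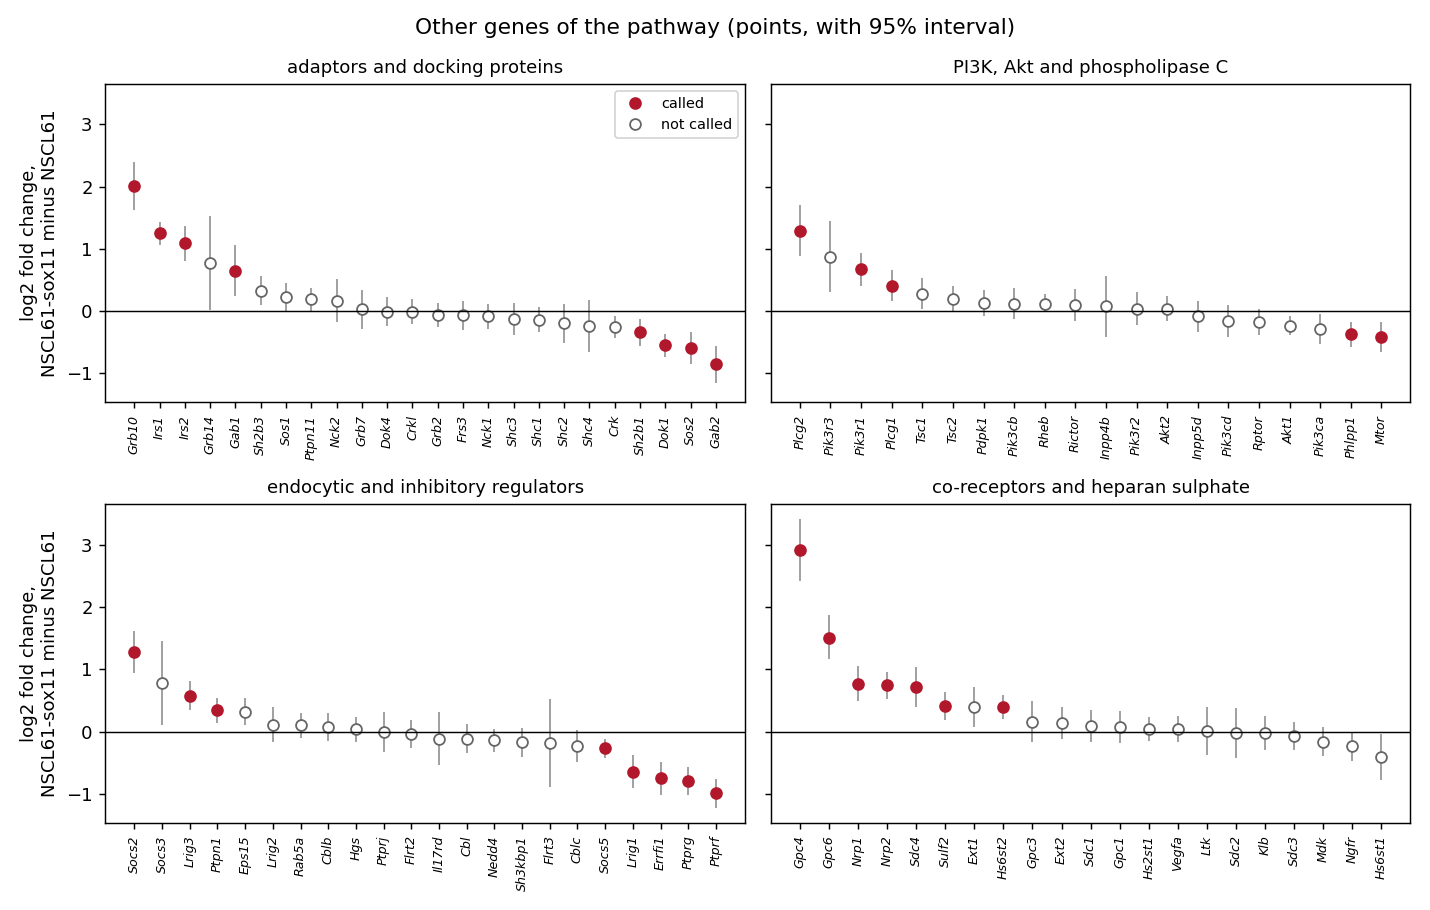
Log2 fold changes, NSCL61-sox11 minus NSCL61 (y axis, with unadjusted 95% intervals), of the tested genes of 4 pathway lists, ordered by size, with called genes in red. Called genes lie on both sides of 0 in 3 lists and above 0 among co-receptors, where Gpc4 is highest at 2.92; with poly-A scaling Hs6st2 moves to -0.01.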

How the data were processed

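Total RNA of 2 NSCL61-sox11 and 2 NSCL61 samples was labelled and hybridised to Affymetrix M430_2 arrays, 1 per sample, per the labels' protocols. The deposited table holds the authors' processed values of 45101 probe sets, whose range of 2.13 to 14.62 is that of a log2 scale. The log base is inferred, and the summary method and normalization are not given in the sources used. Array medians of 5.74 to 5.78 show a common scale, so no further scaling was applied.

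Gene names came from the platform annotation held by GEO; 34945 had 1 symbol, 932 several and 9160 none here. NSCL61-sox11 was set against NSCL61 by a two-sided test in limma 3.58.1 (R 4.3.3), with lmFit and a trended eBayes, over the brightest 60% of non-control probe sets, called at an adjusted p under 0.05. The number of arrays limits the precision: 2 residual degrees of freedom became 6.36 after moderation, and an exact permutation test of 2 arrays against 2 cannot go below 0.333. Simulated data of 27022 probe sets had independent errors and 67, 67 and 66 changes of 1.5-fold, 2-fold and 4-fold. Of these 10.4%, 74.6% and 97% were recovered. The share changed was far below the share called in the data, and the adjusted p depends on that share. These rates are therefore not recovery rates for the data.

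The members and lists were chosen with earlier results of these data known. Called members are given in full, and families without one by their largest changes; from each pathway list up to 4 called genes with the largest change are named by rule. The other called co-receptor genes, marker genes, genes given as examples of no call, and probe sets that disagree, were picked after their values were seen. Alternatives covered scaling, level filter, choice of probe set, variance model, replicate number and leaving out each array. Figures were drawn with matplotlib 3.10.9.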

Additional observations from a re-analysis of the deposited data

How the results depend on the processing

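The counts held within 1.5 times under quantile normalization, median centring, other level filters, other choices of probe set and other variance models. With poly-A scaling 1354 genes, 5 members upwards and 12 pathway genes were called, against 2510, 16 and 28 on the deposited scale, the median of the members was -0.30, and Vegfc turned to -0.02. With hybridisation control scaling 12 members were called downwards, against 6, and the median was -0.11. Each scaling subtracts 1 amount from every change by construction, and by shifting each array on its own it also alters the SEs. Leaving out 1 array gave 908 to 2692 genes, 9 to 18 members upwards, 1 to 9 downwards, a median of 0.06 to 0.15 and 14 to 26 pathway genes, with the fewest genes without NSCL61 array 1; the lone array of a line is then assumed to vary like the other line. The titles number the arrays of both lines, but nothing says that a number marks a shared culture or day. The deviations of same-numbered arrays correlated at 0.415. With the replicate number as a block 4830 genes were called, with 19 members upwards and 11 downwards; all 22 called members were called and Hbegf, Ereg, Kitl, Flt1, Vegfb, Gfra1, Mertk and Ddr1 were added. Why the block adds calls was not tested. Among small changes, the calls of Erbb2, Ryk, Vegfc and Pgf were lost under both control scalings.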

Other observations

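The glypican gene Gpc2 was at 4.24 and 4.14 in NSCL61-sox11 and at 3.21 and 3.55 in NSCL61, below the level filter (log2 fold change 0.81, SE 0.14, limma adjusted p = 0.011 in the fit of all probe sets).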
